A study of Mus musculus with 16 samples.

Results

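Lungs of ovalbumin-challenged Cox4i2 mutant mice were compared with lungs of ovalbumin-challenged wild-type mice, across 11962 genes or unnamed probes that passed a filter on dim signals. The comparison rests on 8 of the study's 16 arrays, the 4 labelled as challenged mutant and the 4 labelled as challenged wild type. All mice were female, of strain C57BL/6N and 17 weeks old, and the RNA came from part of the lung. The mutant mice belong to the Cox4-2 mutant line, called a knockout in the title of the study, and the labels name neither the allele nor any promoter. Cox4-2 is the gene that the array names Cox4i2. Challenged mice of both genotypes had been sensitised by intraperitoneal injection of 10 µg ovalbumin (OVA) with 2 mg alum as adjuvant and then inhaled an aerosol of 1% OVA for 30 min on 3 occasions. The 4 untreated mutant and 4 untreated wild-type mice carry the treatment label "none", and their arrays entered the fit and the comparison of genotypes without challenge.

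Cox4i2 encodes an isoform of subunit 4 of cytochrome c oxidase, the last enzyme of the mitochondrial respiratory chain, which passes electrons to oxygen. This isoform is found mainly in lung, where cells of the vessel wall such as pericytes carry it, and it is known for a role in oxygen sensing. Sensitisation and aerosol challenge with OVA is a standard mouse model of allergic airway inflammation, in which type 2 cytokines and eosinophil-attracting chemokines are made and eosinophils enter the tissue.

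The deposited values are array intensities from which background had been subtracted, so a value below 0 means a signal under background, and an intensity over 16.8 was counted as above background. Differences are log2 of the mutant over the wild-type level, taken after a background model and an offset of 16, which understates the differences of dim genes. They were tested with limma over all 16 arrays, and adjusted p-values are Benjamini-Hochberg values over all 11962 features with a threshold of 0.05. The lung markers Sftpc and Scgb1a1 were bright on every challenged array. The surfactant protein gene Sftpc read 29449 to 32045 in mutant lungs against 28722 to 32045 in wild-type lungs. The club cell secretoglobin Scgb1a1 read 40697 to 44008 against 38908 to 45524.

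Challenged arrays differed in their signal from other tissues. The skeletal muscle actin gene Acta1 read 62.7, 7831, 118 and 73.0 in mutant lungs 1 to 4, against 14616, -3.07, 16798 and 148 in wild-type lungs 1 to 4. Mutant lung 2 and wild-type lungs 1 and 3 stood apart. These 3 arrays also had the highest signal of the squamous keratin Krt13, at 2263 to 3988 where the other 5 read -8.40 to 75.5, and of the fat hormone gene Adipoq, at 1463 to 2059 where the other 5 read 18.1 to 219. The genotypes were therefore compared over all 8 challenged arrays and again without these 3, whose Acta1 intensity exceeded 1000, which leaves mutant lungs 1, 3 and 4 against wild-type lungs 2 and 4. In whole lung, fewer cells of a type and less RNA per cell cannot be told apart.

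Over all 8 challenged arrays, Rem1 and Gamt fell in the mutant lungs and no other feature passed the test. These 2 calls are 0.0167% of the features tested, all of them lower, with 0 called higher (0%). By unadjusted limma p, 1465 features (12.2%) lay below 0.05, of which 683 (5.71%) were lower and 782 (6.54%) higher in the mutant. A limma fit of the 8 challenged arrays alone, without the untreated arrays, called 0 features (1281 below an unadjusted p of 0.05). Without the 3 arrays with Acta1 above 1000, 86 features were called (0.719%), 63 of them lower (0.527%) and 23 higher (0.192%). Rem1 and Gamt were called both ways, in fits that share 5 challenged arrays. Without the 3 arrays the call held in 12 of 17 alternative settings for Rem1 and in 7 of 17 for Gamt. By sign alone, 45.9% of all features were lower in the mutant over all 8 arrays and 47.9% without the 3. Members of a list may vary together, and the counts of their signs given below carry no test.

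The targeted gene Cox4i2 read 106, 124, 104 and 243 in challenged mutant lungs, against 223, 281, 182 and 305 in challenged wild-type lungs. The signal was above background in every mutant lung, and mutant lung 4 lay within the wild-type range. The log2 difference was -0.68 (SE 0.236, limma adjusted p = 0.265). An exact 2-sided permutation test over the 8 arrays gave p = 0.0857, where 0.0286 is the smallest that 4 against 4 can give. Without the 3 arrays the log2 difference was -0.87 (limma adjusted p = 0.249). Untreated mutant lungs read 102, 77.5, 181 and 189, against 247, 252, 260.2 and 372 in untreated wild-type lungs, a log2 difference of -0.90 (limma adjusted p = 0.190), and there the genotypes did not overlap. The labels do not say which part of the transcript the allele removes, so the probe may lie outside it and the level is no check of the labels.

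**Figure D1:**
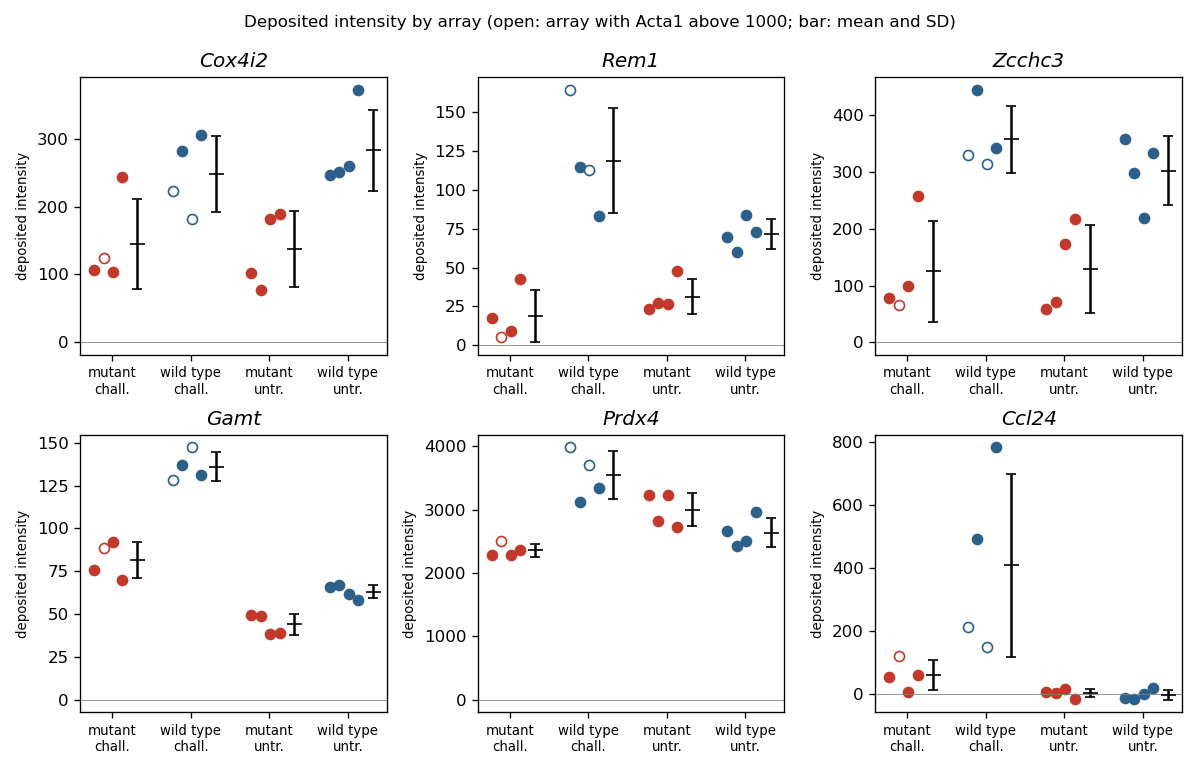
Deposited intensity (linear scale, y axis) of 6 genes on each array, for challenged mutant, challenged wild-type, untreated mutant and untreated wild-type lungs from left to right; open circles are the 3 arrays with Acta1 above 1000 and bars give the mean and SD of 4 arrays. Rem1, Zcchc3, Gamt, Prdx4 and Ccl24 do not overlap between the challenged genotypes, whereas Cox4i2 does.

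Rem1, a small GTPase of the RGK family that binds voltage-gated calcium channels, had the smallest p of all features. It read 17.6, 5.44, 9.23 and 42.7 in challenged mutant lungs, against 164, 115, 113 and 83.4 in challenged wild-type lungs. All 4 mutant lungs lay below all 4 wild-type lungs, and 2 of the 4 mutant arrays were above background. The log2 difference was -1.44 (SE 0.174, limma adjusted p = 0.00302), and -1.15 (limma adjusted p = 0.0170) without the 3 arrays. Without challenge it read 23.2, 27.4, 26.6 and 47.8 in mutant lungs, against 69.9, 59.7, 83.7 and 73.1 in wild-type lungs, again with no overlap, although the log2 difference of -0.65 missed the threshold (limma adjusted p = 0.195). The change of this difference with challenge was not called (interaction limma adjusted p = 0.250).

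Rem1 lies on chromosome 2, as does Cox4i2, and in the RefSeq annotation of build GRCm38.p6 its start is at -127 kb from that of Cox4i2. Another neighbour at -342 kb, Zcchc3, a zinc-finger protein that helps the DNA sensor cGAS, was singled out after its values were seen. It read 78.6, 65.6, 98.3 and 258 in challenged mutant lungs, against 331, 445, 314 and 342 in challenged wild-type lungs. The genotypes did not overlap, but the log2 difference of -1.39 missed the threshold (limma adjusted p = 0.140). In untreated lungs it read 58.2, 70.3, 173 and 218 in mutants, against 359, 299, 219 and 334 in wild type (log2 -1.11, limma adjusted p = 0.203). Lung 4 was the highest of the challenged mutants for Cox4i2, Rem1 and Zcchc3 alike.

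Of the 24 genes that lead the comparison, 12 lower and 12 higher, 6 were on chromosome 2, and 4 of these started within 10 Mb of Cox4i2 (Cst9, Rem1, Eif2s2 and Zhx3). Of all positioned features, 7.94% lay on that chromosome. Of 132 features within 10 Mb, the challenged genotypes did not overlap in 9 lower and 8 higher ones, together 12.9%, against 6.55% of all features (2.77% lower and 3.79% higher). In untreated lungs 13 of the 132 did not overlap, where 7.10% of all features did not. Under both treatments 3 did so in the same direction: Zcchc3 and Rem1 lower, and Rprd1b, a regulator of RNA polymerase II, higher (log2 0.28 challenged and 0.31 untreated). The window was chosen after the first results were known, and these counts carry no test.

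**Figure D2:**
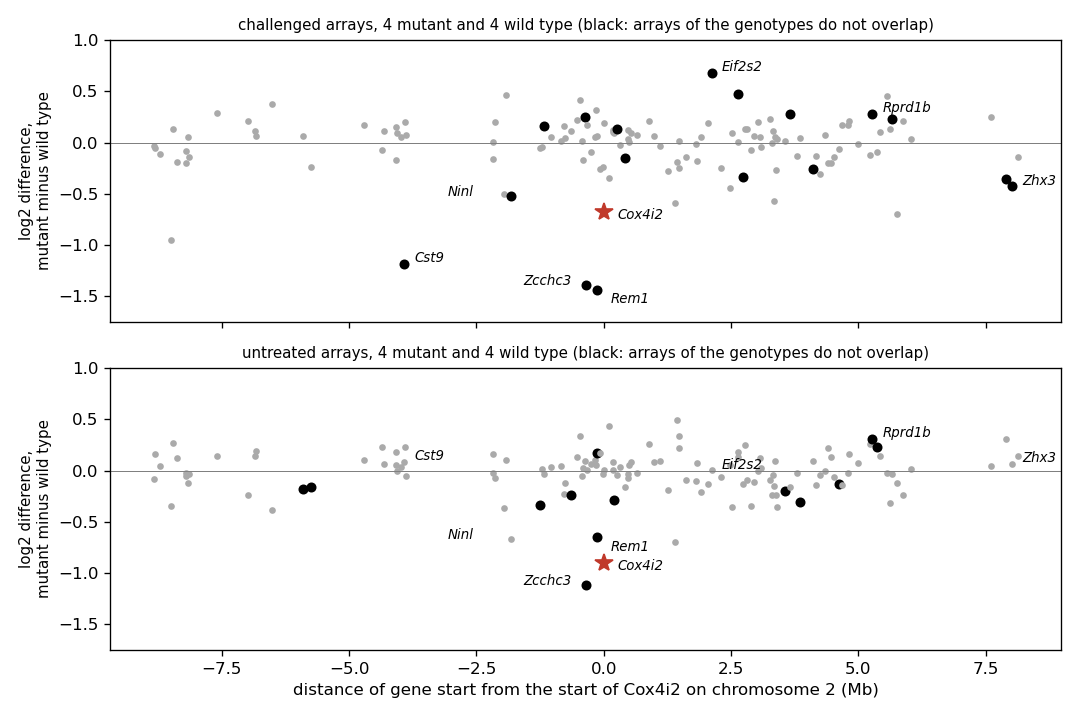
Log2 difference (mutant minus wild type, y axis) of the 132 features within 10 Mb of Cox4i2 by distance of their starts from the start of Cox4i2 in Mb (x axis), for challenged lungs above and untreated lungs below; black points are features whose 4 mutant and 4 wild-type arrays do not overlap. Rem1 and Zcchc3 lie close to Cox4i2 and are the lowest points in the challenged lungs, at -1.44 and -1.39.

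Gamt encodes guanidinoacetate methyltransferase, the enzyme that makes creatine from guanidinoacetate. It read 75.5, 88.6, 91.9 and 69.8 in challenged mutant lungs, against 128, 137, 147 and 131 in challenged wild-type lungs. The genotypes did not overlap, with means of 81.4 ± 10.5 and 136 ± 8.48 (SD, n = 4 each). The log2 difference was -0.53 (SE 0.0842, limma adjusted p = 0.0475), and -0.55 (limma adjusted p = 0.0420) without the 3 arrays. The call over all 8 arrays held in 6 of 20 alternative settings. Untreated mutant lungs read 49.6, 48.8, 38.5 and 39.0, against 65.6, 66.8, 61.8 and 58.2 in untreated wild-type lungs, which did not overlap either (log2 -0.30, limma adjusted p = 0.203), and the interaction was not called (limma adjusted p = 0.450). Of the 7 tested genes of creatine synthesis and creatine kinases, 6 were lower over all 8 arrays (median log2 -0.46), and Gamt was the 1 that passed. In the reduced set of arrays 4 were lower and 3 higher (median log2 -0.12). The mean log2 level of this list, relative to untreated wild-type lungs, was 0.24, 0.79, 0.40 and 0.02 in challenged mutant lungs 1 to 4 against 1.41, 0.35, 1.33 and 0.36 in challenged wild-type lungs 1 to 4, with the wild-type arrays of high Acta1 on top. The mitochondrial creatine kinase Ckmt1 read 794, 807, 761 and 1143 in challenged mutant lungs, against 1248, 1541, 739 and 1455 in challenged wild-type lungs (log2 -0.46, limma adjusted p = 0.352). The muscle creatine kinase Ckm followed Acta1, at 8.31, 357, 36.4 and -4.58 against 938, 3.63, 1175 and 5.21.

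The other 10 of the 12 leading lower genes missed the threshold over all 8 arrays. Prdx4, a peroxiredoxin of the endoplasmic reticulum that removes hydrogen peroxide, read 2286, 2502, 2286 and 2369.5 in challenged mutant lungs, against 3981, 3127, 3704 and 3345 in challenged wild-type lungs. The genotypes did not overlap, and the log2 difference was -0.57 (SE 0.0962, limma adjusted p = 0.0549), and -0.48 (limma adjusted p = 0.0878) without the 3 arrays. In untreated lungs the sign was the other one, with 3227, 2816, 3224 and 2728 in mutants against 2668, 2429, 2502 and 2955 in wild type (log2 0.18, limma adjusted p = 0.463; interaction limma adjusted p = 0.153). Prdx4 is 1 of 15 tested peroxiredoxin and thioredoxin genes, of which 8 were lower and 0 called, with a median log2 difference of -0.02 against 0.02 over all features.

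Uck2, a kinase of pyrimidine salvage, read 274, 315, 259.8 and 221 in challenged mutant lungs, against 413, 422, 422 and 438 in challenged wild-type lungs. The 4 wild-type lungs were close together whatever their Acta1. The log2 difference was -0.60 (limma adjusted p = 0.0549), and -0.69 without the 3 arrays, where it was called (limma adjusted p = 0.0269). Ccdc80, a secreted protein bound to the matrix, read 248, 419, 253 and 159 against 582, 611, 467 and 568 (log2 -1.003, limma adjusted p = 0.0670), and fell by 1.29 on the log2 scale without the 3 arrays (limma adjusted p = 0.00442). For both genes the untreated genotypes were closer, with log2 differences of 0.15 and -0.32. Cst9, a cystatin, read 29.3, 39.9, 10.6 and -2.23 against 89.8, 98.9, 43.4 and 153 (log2 -1.18, limma adjusted p = 0.115), with 2 of the 4 mutant arrays above background, and was called without the 3 arrays (log2 -1.67, limma adjusted p = 0.00442). The tubulin Tubb6 and the calpain-like Capn6 likewise missed the threshold over all 8 arrays, at log2 -0.55 and -0.61, and were called without the 3 (log2 -0.76 and -0.84). The zinc-finger homeobox gene Zhx3 (log2 -0.43) was called neither way.

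Ccl24, the eosinophil-attracting chemokine eotaxin-2, had the largest log2 difference among the leading genes. It read 51.7, 119.6, 3.95 and 58.4 in challenged mutant lungs, against 211, 492, 149.5 and 784 in challenged wild-type lungs. No mutant lung reached the lowest wild-type lung, and the wild-type lungs with high Acta1 were the lower pair. The log2 difference was -2.08 (SE 0.439, limma adjusted p = 0.140), and -3.16 (limma adjusted p = 0.00515) without the 3 arrays. Untreated lungs were near background, with 4.36, 2.91, 13.8 and -16.7 in mutants against -14.4, -16.2, -2.23 and 17.1 in wild type. Without the 3 arrays the genotype difference under challenge differed from that in untreated lungs (interaction log2 -3.36, limma adjusted p = 0.0275), in a fit that kept 0 or 1 interaction calls of any gene when 1 more challenged array was left out.

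Of the 17 tested type 2 chemokine and cytokine genes, 11 were lower and 6 higher in the mutant over all 8 arrays, with 0 called and a median of -0.25. Ccl11, eotaxin-1, read 265, 301, 259 and 276 in challenged mutant lungs, against 585, 445, 625 and 599 in challenged wild-type lungs, with no overlap (log2 -0.93, limma adjusted p = 0.190). In untreated lungs 3 of the 4 mutants lay above all wild-type lungs, at 534, 158, 465 and 224 against 99.0, 86.0, 153 and 189 (log2 1.07, limma adjusted p = 0.171), and the interaction was not called (limma adjusted p = 0.153). Ccl12, a monocyte chemoattractant, read 189, 164, 95.2 and 123 against 235, 264, 246 and 316 (log2 -0.76, limma adjusted p = 0.242), again with no overlap. The interleukin-13 receptor chain Il13ra1 lay the other way without overlap, at 579.9, 571, 499.6 and 529 against 454, 451, 401 and 425 (log2 0.31, limma adjusted p = 0.241).

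Of 8 tested eosinophil genes, 6 were lower over all 8 arrays (median -0.27, 0 called). With the 3 arrays left out, 8 of 8 were lower (median -0.58), 6 of them without overlap (15.3% of all features), and 0 were called. Prg2, the major basic protein of eosinophil granules, read 50.6, 159.8, 77.3 and 57.8 in challenged mutant lungs, against 259.8, 114, 188 and 319.6 in challenged wild-type lungs (log2 -1.04, limma adjusted p = 0.226). The groups overlapped through mutant lung 2 and wild-type lung 2. The lipoxygenase Alox15 read 21.5, 107, 20.8 and 12.5 against 96.9, 36.8, 104 and 118 (log2 -0.75, limma adjusted p = 0.283), with mutant lung 2 again the highest mutant. Of 17 genes of alternatively activated macrophages and chitinase-like proteins, 11 were lower (median -0.09, 0 called). Mgl2, a macrophage lectin outside this list, read 204, 156, 166 and 156 against 211, 323, 306 and 458 with no overlap (log2 -0.75, limma adjusted p = 0.143), and was called without the 3 arrays (log2 -0.98, limma adjusted p = 0.0350). Of 13 genes of mucous metaplasia, 5 were lower over all 8 arrays (median 0.09) and 11 without the 3 (median -0.31), with 0 called either way.

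The 12 leading genes on the higher side all missed the threshold, each with a limma adjusted p of 0.140. A2ml1, a protease inhibitor related to alpha-2-macroglobulin, read 1465, 842, 1085 and 717 in challenged mutant lungs, against 339.7, 659, 407 and 325 in challenged wild-type lungs, with no overlap (log2 1.18). Eif2s2, the beta subunit of the translation initiation factor eIF2, read 1131, 1041, 1242 and 950.0 against 716, 632, 647 and 661 (log2 0.68). Scnn1b, the beta subunit of the epithelial sodium channel, read 1723, 1309, 1776 and 2424 against 894, 1284, 1032 and 1124 (log2 0.70). Further genes were the cadherin Cdh26, the autophagy receptor Calcoco1, the Polycomb protein Cbx7, the natural killer cell receptor Klra4, the lipid transfer protein Osbpl8, the FOXO target Depp1, the glycosyltransferase Gcnt2 and the lysosomal amino acid sensor Slc38a9, between 0.38 (Gcnt2) and 0.86 (Depp1) on the log2 scale. The sign of Gcnt2 turned to -0.077 when the probes of a gene were averaged. Cbx7 and Depp1 were called without the 3 arrays (limma adjusted p = 0.0316 and 0.0497).

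Club cell genes stood higher in the challenged mutants. All 13 tested were higher over all 8 arrays, 4 of them with no overlap between the genotypes (3.79% of all features) and 7 with an unadjusted limma p under 0.05 (6.54% of all features), but 0 were called, and the median was 0.39. Aldh1a1, a retinaldehyde dehydrogenase, read 5308, 4957, 5954 and 6587 in challenged mutant lungs, against 4235, 4608, 4256 and 3582 in challenged wild-type lungs (log2 0.44, limma adjusted p = 0.188). The xenobiotic enzyme Cyp2b10 read 2481, 1990.3, 3981 and 3021 against 1788, 1595, 2279 and 1764 (log2 0.58, limma adjusted p = 0.227). With the 3 arrays left out, 12 of 13 were higher, 8 with an unadjusted limma p under 0.05 (5.76% of all features) and 9 without overlap (16.9% of all features). In untreated lungs 10 of the 13 were lower in the mutant, with a median of -0.29. Of 15 ciliated cell genes, 13 were higher over all 8 arrays (median 0.33, 0 called).

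Respiratory chain genes lay on the lower side. Of 34 tested complex I genes, 33 were lower in the challenged mutants over all 8 arrays and 15 had an unadjusted limma p under 0.05 (5.71% of all features), with 0 called and a median of -0.21. All 26 genes of complexes II and III and the ATP synthase were lower (median -0.19, 0 called), as were 21 of 26 cytochrome c oxidase genes other than Cox4i2 (median -0.09, 0 called). The complex I level, relative to untreated wild-type lungs on the log2 scale, was -0.04, -0.02, 0.01 and 0.10 in challenged mutant lungs against 0.32, 0.04, 0.36 and 0.13 in challenged wild-type lungs, with the wild-type arrays of high Acta1 on top. In the reduced set of arrays 25 of 34 complex I genes were lower (median -0.07), with 0 lower genes below an unadjusted limma p of 0.05 (6.64% of all features). Of the genes of complexes II and III and the ATP synthase, 23 of 26 were lower (median -0.09). The oxidase genes were lower in 12 of 26 (median 0.01), where 47.9% of all features were lower. Cox4i1, the widespread isoform of the same subunit, read 6553, 7373, 7119.9 and 6823 in challenged mutant lungs, against 8852, 8002, 7763 and 8098 in challenged wild-type lungs, with no overlap (log2 -0.23, limma adjusted p = 0.290), and differed by -0.24 without the 3 arrays (limma adjusted p = 0.398).

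Of 12 plasma cell genes, 10 were lower over all 8 arrays (median -0.35, 0 called), and 8 were lower and 4 higher in the reduced set (median -0.14). Mzb1, a chaperone of immunoglobulin folding, read 1084, 1687, 818 and 1061 in challenged mutant lungs, against 5880.4, 2484, 1679 and 941 in challenged wild-type lungs. Wild-type lung 1, an array of high Acta1, was far above the rest. Of 21 genes of protein folding and the unfolded protein response, 16 were lower (median -0.13, 0 called), among them Xbp1, a transcription factor of that response, at 3768, 3948, 4466 and 3638 against 6480.5, 5064, 5511 and 4266 (log2 -0.42, limma adjusted p = 0.190). Of 24 interferon response genes, 17 were lower (median -0.13, 0 called). The interferon-inducible Ifi27l2a read 1206, 2027, 1951 and 2237 against 3059, 3069.8, 2907 and 3377 with no overlap (log2 -0.76, limma adjusted p = 0.140).

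**Figure D3:**
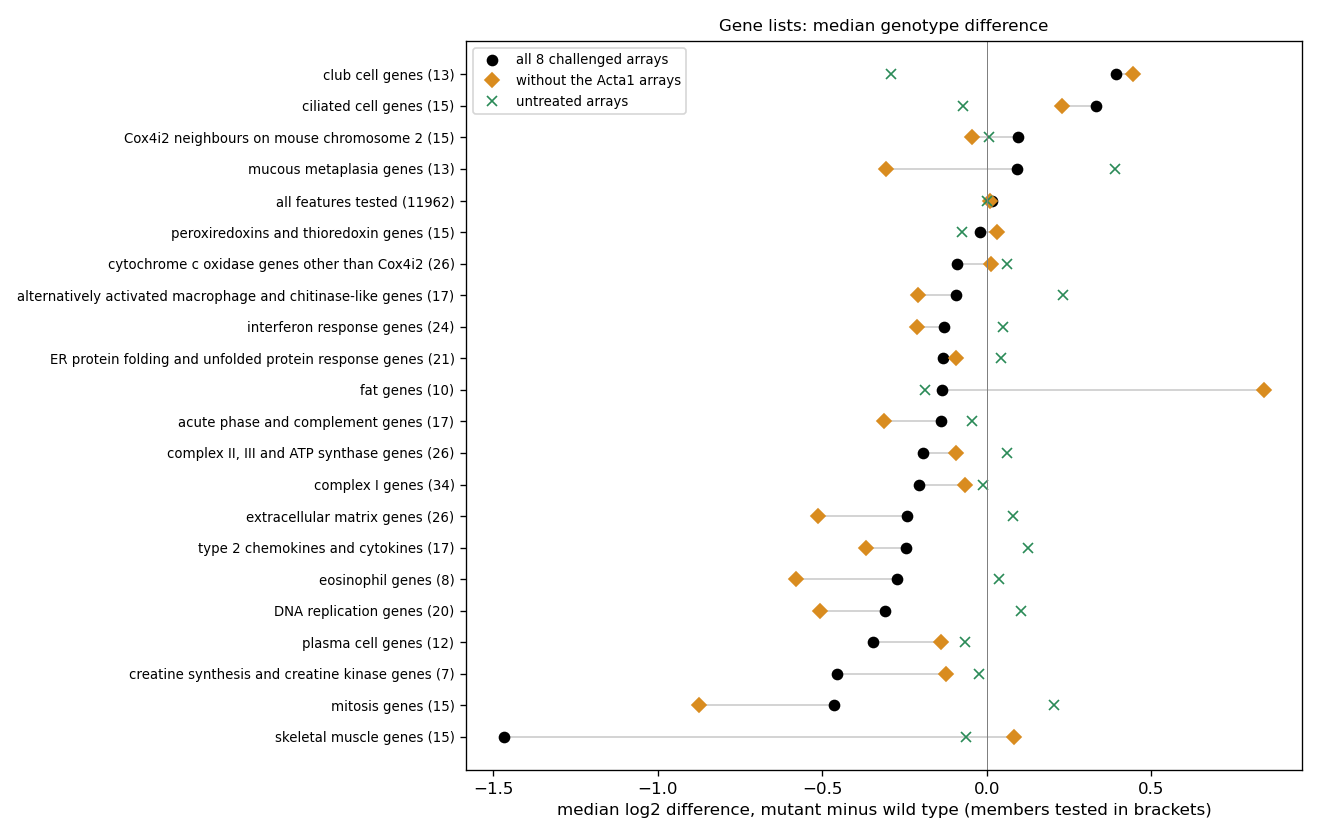
Median log2 difference (mutant minus wild type, x axis) over the tested members of each gene list, with the number of members in brackets, for all 8 challenged arrays (circles), without the arrays with Acta1 above 1000 (diamonds) and for untreated lungs (crosses). Skeletal muscle genes have medians of -1.47 with and 0.08 without the 3 arrays and complex I genes -0.21 and -0.07, while mitosis genes have -0.46 and -0.87.

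Without the 3 arrays with Acta1 above 1000, the genes that fell in the challenged mutants included genes of DNA replication and mitosis. All 20 tested DNA replication genes were lower, 18 with no overlap (15.3% of all features) and 18 with an unadjusted limma p under 0.05 (6.64% of all features), and 6 were called (0.527% of all features). These were Mcm5, a subunit of the replicative helicase; Cdc6 and Cdc45, which help to load and activate it; Lig1, the ligase that joins Okazaki fragments; Tk1, thymidine kinase; and Uhrf1, which maintains DNA methylation. All 15 tested mitosis genes were lower and 2 were called (0.527% of all features), the survivin gene Birc5 and the mitotic kinase Plk1. The medians were -0.51 for replication and -0.87 for mitosis. Over all 8 arrays 19 of 20 and 14 of 15 were lower, 13 and 4 with an unadjusted limma p under 0.05 (5.71% of all features), with 0 called and medians of -0.31 and -0.46. In untreated lungs the medians were 0.10 and 0.20.

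Mcm5 read 378, 511, 366 and 444 in challenged mutant lungs 1 to 4, against 528, 753, 518 and 792 in challenged wild-type lungs 1 to 4. It fell by 0.90 on the log2 scale without the 3 arrays (limma adjusted p = 0.0154), and the difference was -0.55 with them (limma adjusted p = 0.188). Kif22, a chromosome-bound kinesin, read 131, 206, 124 and 140.1 against 163, 364, 129.8 and 408. It fell by 1.31 without the 3 arrays (limma adjusted p = 0.00982), and the difference was -0.58 with them (limma adjusted p = 0.379). Spc25, a kinetochore subunit, read 39.5, 66.2, 35.9 and 33.7 against 73.4, 115, 51.2 and 158, and fell by 1.19 without the 3 arrays (limma adjusted p = 0.00772). In all 3 genes wild-type lungs 2 and 4 were the highest of the 8, and wild-type lungs 1 and 3 were nearer to the mutants. The interaction with challenge was called for Mcm5, Kif22 and Spc25 without the 3 arrays (limma adjusted p = 0.0379, 0.0275 and 0.0275), in the fit whose interaction calls fell to 0 or 1 when 1 more challenged array was left out.

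The promoters of 5 of these called genes are shown because the genes moved together and such genes are known targets of cell-cycle transcription factors. The 5 were picked by hand from the calls, so they do not show how often such motifs occur. They run from 250 bases before to 50 bases after a start given in the RefSeq table of build GRCm38.p6, 5′ to 3′ on the strand of the gene. That start is the annotated start of the gene for Plk1 and Spc25 and lies inside the gene for Mcm5, Kif22 and Cdc6. The windows are Plk1 (chr7:122159185-122159484, plus strand), Spc25 (chr2:69206164-69206463, minus strand), Kif22 (chr7:127042371-127042670, minus strand), Mcm5 (chr8:75109259-75109558, plus strand) and Cdc6 (chr11:98907901-98908200, plus strand). Capitals mark TTTGAA (the CHR element of late cell-cycle genes), CCAAT (the CCAAT box) and TTTCCCGC or TTTGGCGC (forms of the E2F element), each searched on both strands, and a letter could belong to matches of different motifs.
Plk1: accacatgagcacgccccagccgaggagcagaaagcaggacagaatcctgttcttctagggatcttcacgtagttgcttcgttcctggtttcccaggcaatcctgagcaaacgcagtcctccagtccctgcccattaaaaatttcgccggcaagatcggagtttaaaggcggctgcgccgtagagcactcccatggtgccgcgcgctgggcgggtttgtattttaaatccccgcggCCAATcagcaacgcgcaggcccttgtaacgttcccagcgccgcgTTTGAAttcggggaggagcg
Spc25: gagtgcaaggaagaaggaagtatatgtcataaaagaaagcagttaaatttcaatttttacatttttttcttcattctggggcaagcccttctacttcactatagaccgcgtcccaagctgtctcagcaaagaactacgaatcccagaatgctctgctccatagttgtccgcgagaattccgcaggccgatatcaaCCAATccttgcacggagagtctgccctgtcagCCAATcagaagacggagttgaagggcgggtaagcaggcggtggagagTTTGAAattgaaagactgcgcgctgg
Kif22: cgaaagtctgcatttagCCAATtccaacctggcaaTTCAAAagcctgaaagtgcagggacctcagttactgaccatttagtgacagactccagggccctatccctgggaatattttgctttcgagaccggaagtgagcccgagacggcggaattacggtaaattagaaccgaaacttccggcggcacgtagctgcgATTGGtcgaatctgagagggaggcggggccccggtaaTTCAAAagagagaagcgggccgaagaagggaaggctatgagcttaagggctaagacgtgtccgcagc
Mcm5: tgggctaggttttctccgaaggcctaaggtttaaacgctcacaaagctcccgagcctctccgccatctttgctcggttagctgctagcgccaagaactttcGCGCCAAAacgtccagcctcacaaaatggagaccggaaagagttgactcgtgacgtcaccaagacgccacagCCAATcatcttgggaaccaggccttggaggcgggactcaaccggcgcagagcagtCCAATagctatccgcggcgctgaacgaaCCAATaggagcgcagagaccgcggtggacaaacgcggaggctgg
Cdc6: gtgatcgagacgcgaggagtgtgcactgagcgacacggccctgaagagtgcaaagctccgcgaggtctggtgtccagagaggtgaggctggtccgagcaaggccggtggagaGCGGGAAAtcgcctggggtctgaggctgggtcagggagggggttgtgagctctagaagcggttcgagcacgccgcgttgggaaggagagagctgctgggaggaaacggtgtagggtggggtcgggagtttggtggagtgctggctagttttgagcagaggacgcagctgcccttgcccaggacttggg

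The Plk1 and Spc25 windows held 1 TTTGAA each and that of Kif22 held 2, while Mcm5 and Cdc6 each held 1 of the E2F forms. The 8 lower calls of the replication and mitosis lists all had a promoter in the RefSeq table. TTTGAA was found in 2 of the 8 (25%), CCAAT in 4 (50%) and an E2F form in 2 (25%). Of the 63 lower features, 52 had a promoter in the table. TTTGAA was found in 17 of these (32.7%), against 20.2% of all 27025 genes and 17.9% of all 32851 promoters. CCAAT was found in 26 (50%), against 41.1% of genes and 37.4% of promoters, and an E2F form in 5 (9.62%), against 1.80% of genes and 1.56% of promoters. A gene counted as holding a motif when any of its promoters did, and a match is a string of letters, not a bound site. The genes of the table include many that were not tested here. The share among the tested features was not computed, so these percentages compare unlike sets and carry no test.

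Matrix genes formed another group. Of 26 tested, 24 were lower without the 3 arrays and 7 were called, where 0.527% of all features were called lower: the collagens Col1a1, Col1a2, Col3a1 and Col6a2, the fibrillin Fbn1, tenascin C (Tnc) and the metalloproteinase inhibitor Timp1. The median was -0.51, and -0.24 over all 8 arrays, where 23 were lower and 0 called. Col1a1 read 363, 616, 436 and 328 in challenged mutant lungs, against 598, 893, 735 and 705 in challenged wild-type lungs, and fell by 1.01 without the 3 arrays (limma adjusted p = 0.0269; -0.72 with them, limma adjusted p = 0.153). Timp1 read 983, 907, 646 and 734 against 874, 2209, 931 and 2111, and fell by 1.43 (limma adjusted p = 0.0126). Wild-type lungs 1 and 3 were inside the mutant range for Timp1. Fbn1 fell by 0.73 without the 3 arrays and differed by -0.09 with them (limma adjusted p = 0.0362 and 0.922). The serum amyloid gene Saa3, an acute phase protein, read 1143, 1038, 371 and 545 against 918, 3509, 863 and 3648, and fell by 2.46 (limma adjusted p = 0.0497).

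Among the 23 genes called higher without the 3 arrays, several lung genes were higher over all 8 arrays too, without a call there. Inmt, a methyltransferase abundant in lung, read 11498, 6721, 12247 and 12412 in challenged mutant lungs, against 6823, 5099, 11119.7 and 6223 in challenged wild-type lungs, and rose by 1.09 on the log2 scale (limma adjusted p = 0.00561; 0.57 over all 8, limma adjusted p = 0.304). Cyp4b1, a lung cytochrome P450, read 1556, 1164, 1807 and 1789.7 against 942, 938, 1281 and 878, and rose by 0.89 (limma adjusted p = 0.0126). The sulfotransferase Sult1a1, the selenium-binding protein Selenbp1 and the growth factor receptor Pdgfra rose by 1.12, 0.91 and 0.73.

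Other higher calls were genes of other tissues. Adipoq read 179, 1462, 219 and 96.6 in challenged mutant lungs, against 2059, 30.0, 1823 and 18.1 in challenged wild-type lungs, and the adipsin gene Cfd read 2255, 13873, 2778 and 1300.4 against 15840.0, 379, 12412 and 454. Wild-type lungs 2 and 4 were the lowest of the 8 for both. With the 3 arrays in the fit, Adipoq, the urinary protein gene Mup2 and the muscle gene Perm1 turned to -0.12, -0.25 and -0.42. The level of the 10 fat genes, relative to untreated wild-type lungs on the log2 scale, was 0.03, 0.08 and -0.53 in mutant lungs 1, 3 and 4 against -0.92 and -1.17 in wild-type lungs 2 and 4, so fat genes moved with genotype in the reduced comparison. A fit with that level as a covariate called 0 features by limma (845 below an unadjusted p of 0.05). That level did not overlap between the genotypes and includes Adipoq and Cfd, themselves called, so this fit cannot tell fat from genotype. Fat was not the only such list. Cardiac muscle genes were higher in 15 of 15 without the 3 arrays (median 0.44) and red blood cell genes in 6 of 6 (median 0.48). Squamous genes were higher in 11 of 15 (median 0.16), where 52.1% of all features were higher.

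**Figure D4:**
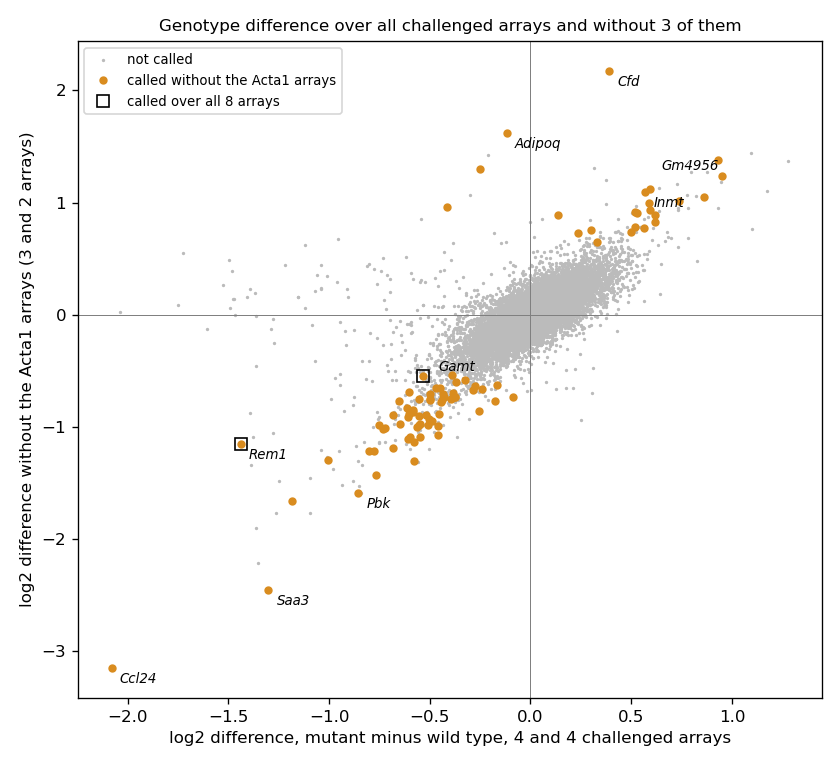
Log2 difference (mutant minus wild type) over all 8 challenged arrays (x axis) against that without the 3 arrays with Acta1 above 1000 (y axis) for 11962 features; orange points are the 86 features called without the 3 arrays and squares the 2 called over all 8. All 63 lower calls also lie below 0 on the x axis, and 20 of the 23 higher calls lie above it.

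The reduced comparison rests on the remaining pair of wild-type lungs. Without wild-type lung 2 the limma fit called 10 features, and without wild-type lung 4 it called 0 (918 below an unadjusted p of 0.05), whereas leaving out mutant lung 1, 3 or 4 gave 58, 36 or 52. Of the 86 called features, 83 had the same direction over all 8 arrays and 70 an unadjusted limma p under 0.05 there, but both fits share 5 challenged arrays. Among the 3 arrays left out, mutant lung 2 lay below both wild-type lungs 1 and 3 in 25 of the 63 lower features (39.7%, against 32.2% of all features) and above both in 20 (31.7%, against 36.9%). The median difference of mutant lung 2 from wild-type lungs 1 and 3 over the 63 features was -0.03 on the log2 scale. Relative to the mean of mutant lungs 1, 3 and 4, the median level of the 63 features was 0.28 in mutant lung 2, against 0.34, 0.85, 0.25 and 0.89 in wild-type lungs 1 to 4. With 1 mutant against 2 wild-type lungs, these values carry no test.

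**Figure D5:**
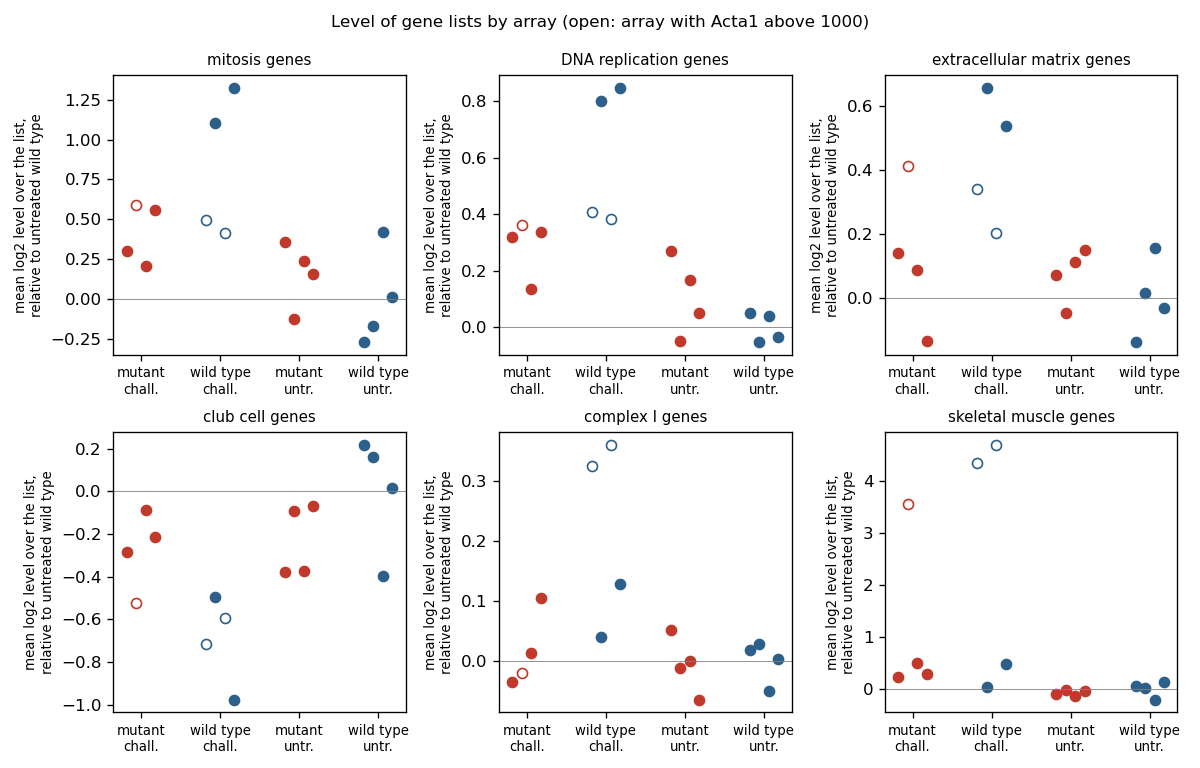
Mean log2 level over the tested members of 6 gene lists on each array, relative to the mean of untreated wild-type lungs (y axis), with the groups from left to right as challenged mutant, challenged wild type, untreated mutant and untreated wild type; open circles are the 3 arrays with Acta1 above 1000. For mitosis genes the challenged mutant lungs lie at 0.30, 0.59, 0.21 and 0.56, and the challenged wild-type lungs at 0.50, 1.10, 0.41 and 1.33.

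In untreated lungs, limma called 0 features between mutant and wild type (0%), with 1454 (12.2%) below an unadjusted p of 0.05. With limma array weights the 0 calls became 130 (2328 below an unadjusted p of 0.05), and 61 (2341 below) in the fit without the 3 arrays. The interaction of genotype and challenge gave 0 calls over all 16 arrays, with 1434 (12%) below an unadjusted p of 0.05, and 34 calls (0.284%) without the 3 arrays, of which 29 were among the 86. Leaving out 1 more challenged array left 1 interaction call, or 0 without wild-type lung 4 (836 below an unadjusted limma p of 0.05), and a fit with the level of fat genes as a covariate gave 0 (704 below). The fat level moved with genotype on the challenged arrays kept, so the fit with that covariate cannot tell fat from genotype. The 63 lower calls had a median untreated difference of 0.053 on the log2 scale. Of the 46 gene lists, the creatine list held Gamt and the neighbours of Cox4i2 held Rem1 as calls over all 8 arrays, and the other lists held 0. With the 3 arrays left out, the lists held, among others besides the replication, mitosis and matrix calls, Ccl24 in the type 2 chemokine and macrophage lists, Saa3 in the acute phase list, Gamt and Rem1 again, and the higher calls Adipoq and Cfd in the fat list and Krt17 in the squamous list.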

How the data were processed

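Lung RNA of 16 mice was measured on Illumina mouse BeadChips. The deposited table holds linear intensities, which the authors' values show to be background subtracted and quantile normalised; per the submitters' processing notes the software was GenomeStudio 2011.1, and what it did is not stated. No slide or scan date was given, so no batch could be examined, and 32 columns of another table, which match no label, were not used beyond its gene symbols. Normexp (limma 3.58.1, R 4.3.3) with an offset of 16 preceded log2. Probes above background (16.8) on at least 4 of 16 arrays were kept (15869 of 25697), and the brightest probe stood for a gene, giving 11962 features: 11014 named by the platform annotation, 624 by the deposited symbols and 324 unnamed. Limma was fitted with 4 group means over all 16 arrays, and again without 3 arrays with Acta1 above 1000. The number of arrays limits the precision. P-values measure the spread between single mice. The labels do not say whether mutant and wild-type replicate numbers pair the samples, and the main fit used no pairing. Genes named are Cox4i2, Gamt, Ccl24, Prdx4, the 12 leading genes in each direction whose groups do not overlap, filled up by smallest p where too few passed, and up to 4 per list described; genes called without the 3 arrays and Zcchc3 were chosen after their values were seen. The members and lists were chosen with earlier results of these data known. Results of some genes are not reported here.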

Additional observations from a re-analysis of the deposited data

Results flagged for a closer look

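Values of single arrays stood apart from the rest of their group in 7 of 180 groups of 4 arrays that were examined by Dixon's rule, and chance alone marks about 1 group in 20. On the log2 scale, Slc38a9 read 7.62 in challenged wild-type lung 4, where the other 3 arrays of the group lay between 7.70 and 7.71. Clec10a read 8.93 in challenged wild-type lung 1, where the other 3 arrays of the group lay between 8.50 and 8.57. Ndufa4 read 11.94 in challenged mutant lung 3, where the other 3 arrays of the group lay between 11.81 and 11.81. Ckmt1 read 10.21 in challenged mutant lung 4, where the other 3 arrays of the group lay between 9.65 and 9.73. Alox15 read 7.21 in challenged mutant lung 2, where the other 3 arrays of the group lay between 5.74 and 5.96. Fxyd4 read 7.93 in challenged wild-type lung 3, where the other 3 arrays of the group lay between 9.27 and 9.49. Irf4 read 7.72 in challenged mutant lung 2, where the other 3 arrays of the group lay between 7.09 and 7.15.

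The genotype difference under challenge minus that without challenge passed the limma test in 34 genes without the 3 arrays with Acta1 above 1000 (interaction, adjusted p under 0.05), and in 0 with all 16 arrays (1434 below an unadjusted p of 0.05). A negative value means that the mutant minus wild-type difference was lower under challenge. Genes of dividing cells had the following log2 values: Spc25 -1.36, Kif22 -1.52, Mcm5 -1.10, Tk1 -1.22, Tyms -1.11, Brip1 -0.99, Mad2l1 -0.95, Gtse1 -1.06, Incenp -0.89, Tcf19 -0.89 and Cdca7 -0.83. The chemokine Ccl24 had -3.36, the matrix genes Tnc and Timp1 -1.32 and -1.56, the cystatin Cst9 -1.753 and the pyrimidine kinase Uck2 -0.84. The other negative values were Tubb6 -0.87, Mest -1.13, Prnd -0.98, Rgs4 -0.97, Capn6 -0.83, Pla2g4f -0.78 and Grm6 -1.39. The fat, urinary protein and muscle genes had Adipoq 1.94, Cfd 2.83, Mup2 1.68 and Perm1 1.32, all of them lowest in wild-type lungs 2 and 4 among the challenged lungs. The remaining positive values were Inmt 1.32, Gm4956 1.33, Selenbp1 1.09, Depp1 1.58, Rtn2 0.77, Psmd2 0.79 and Cbx7 1.03. These calls rest on 3 challenged mutant and 2 challenged wild-type lungs. Leaving out mutant lung 1, 3 or 4 or wild-type lung 2 left 1 call, leaving out wild-type lung 4 left 0 (836 below an unadjusted limma p of 0.05), and a fat covariate left 0 (704 below). The fat level moved with genotype on the challenged arrays kept, so the fit with that covariate cannot tell fat from genotype. The values of Grm6, Mup2, Perm1, Cst9 and Ccl24 are fitted values that depend on the offset and bound no fold. This is because at least 1 group of arrays in each was not above background. For Grm6 these were the 3 challenged mutants and all untreated lungs, for Mup2 and Perm1 the challenged wild-type lungs 2 and 4, for Cst9 all untreated lungs, and for Ccl24 the untreated mutants.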

How the results depend on the processing

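The precision is limited by 4 arrays per genotype, and by 3 against 2 without the arrays with Acta1 above 1000. Over all 8 challenged arrays the 2 calls became 86 without the 3 arrays (63 lower and 23 higher), 5 with an offset of 50, 4 each with a stricter filter, with probes averaged and with trend and robust eBayes, and 1 each with a skeletal muscle covariate, a floor, no filter and array weights. The 8 challenged arrays alone gave 0 (1281 below an unadjusted limma p of 0.05). Leaving out 1 array gave 1 to 13 calls, the 13 (9 lower and 4 higher) without mutant lung 2. A replicate block gave 1 call (1 lower) over all 8 arrays and 106 without the 3, of which 57 were among the 86. Same-number arrays correlated at -0.496 to 0.262 in their departures from the group means. Mutant lung 2 and wild-type lung 1, both with Acta1 above 1000, correlated at 0.513. These correlations therefore cannot show whether the numbers pair the samples. Rem1 kept its call in 19 of 20 alternatives and Gamt in 6, both with the same direction in all 20.

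The 86 calls became 2 with all arrays, 54 (39 lower and 15 higher) in a fit of the 5 arrays alone, 52 (38 and 14) with a background mean of 0 in normexp, which was added after seeing the data, 40 (28 and 12) with no filter, 154 (110 and 44) with array weights and 0 with a fat covariate. Leaving out 1 array gave 0 to 58 calls (0 to 42 lower and 0 to 16 higher). The interaction had 0 calls with all arrays, 34 (23 lower and 11 higher) without the 3, and 0 with a skeletal muscle covariate (1353 below an unadjusted limma p of 0.05). Those 34 became 9 with no filter, 18 with a background mean of 0, 19 with a floor, 22 with probes averaged, 101 with array weights and 0 with a fat covariate (704 below), and 0 to 1 when 1 more array was left out. The 0 untreated calls became 130 with array weights (61 without the 3 arrays), and 1 with an offset of 50, a floor (1 also without the 3 arrays), probes averaged, or trend and robust eBayes. Signs reversed for Gcnt2 with probes averaged (-0.077), and, with all arrays, for Adipoq (-0.12), Mup2 (-0.25) and Perm1 (-0.42). The fat level moved with genotype on the 5 arrays, so the fits with a fat covariate cannot tell fat from genotype. The cause of these changes was not tested. Alternatives for the 86, the 34 and the untreated calls were chosen after seeing the data.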
